A study of Mus musculus with 12 samples.

Results

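The venous endothelial cells of the mouse aorta were described here from 4 single-cell gene expression libraries. A barcode was taken as venous when it carried endothelial transcripts, no Ptprc and no Prox1, and more venous than arterial or small vessel transcripts. The endothelial condition was at least 2 of the 6 genes Pecam1, Cdh5, Cldn5, Egfl7, Eng and Mmrn2 detected. The venous condition was a summed count of at least 2 unique molecular identifiers (UMIs, each standing for 1 captured transcript molecule) over Selp, Chp2, Grrp1 and Ackr1, larger than the sums over Gkn3, Gja5, Bmp6 and Ptprr (arterial) and over Rbp7, Sema3g, Gpihbp1 and Gja4 (small vessel). Of 38072 barcodes with more than 200 genes, more than 1000 UMIs and under 10% mitochondrial UMIs, 9289 were endothelial and 1113 of these were venous. The venous cells were therefore 11.98% of the endothelial cells and 2.92% of all kept barcodes. These values of 12 gate genes and 8 other genes chose the cells, so the levels of those 20 genes are description only and were left out of all tests.

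All mice were male C57BL/6J animals that carried the ApoE-/- genotype by label and were 8 weeks old at the start of a 24-week experiment, with 18 mice per group. The Healthy group had normal chow and saline. The atherosclerosis (AS) group had a high-fat diet with 1% cholesterol and 10% fat for 24 weeks and saline. The MTZ-treated group had the same diet and, for the last 12 weeks, methazolamide (MTZ, a carbonic anhydrase inhibitor, spelled methoxazolamide in the sample labels) at 25 mg/kg, and the MTZ-preventive group had MTZ for all 24 weeks. Cells of 6 pooled aortas made 1 library per group, so a difference between conditions has no replicate and none is tested. The labels call all 4 groups ApoE-/-, but Apoe was at 2454 CPM (UMIs of the gene scaled to 1000000 UMIs of all genes in the class) in the venous cells of the library labelled Healthy against 22.9, 18.4 and 14.7 CPM in those of AS, MTZ-treated and MTZ-preventive. Arterial cells (1557, 0, 28.4 and 28.7 CPM) and small vessel cells (850, 15.2, 35.6 and 16.9 CPM) showed the same gap. The genotype of the library labelled Healthy thus went against its label in this gene, and in its comparison with AS, diet and a possible difference in genotype cannot be told apart.

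Veins and venules return blood from the tissue and are the main site where white blood cells leave the circulation. Their endothelium stores P-selectin, with von Willebrand factor, in Weibel-Palade bodies, shows E-selectin, ICAM-1 and VCAM-1 on activation, and is leaky through diaphragms built from PLVAP. The transcription factor COUP-TFII, encoded by Nr2f2, holds venous identity by restraining Notch signalling, the programme of arteries. In an aortic preparation, venous endothelium comes from the vasa vasorum and the tissue around the wall, while the lumen of the aorta is lined by arterial endothelium.

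Throughout, 4 values in a row are in the order library labelled Healthy, AS, MTZ-treated and MTZ-preventive. The venous cells numbered 154, 72, 424 and 463. Their summed UMIs were 507846, 130954, 925885 and 1360510, with medians of 2896, 1414, 1812 and 2465 UMIs and 1336, 817, 946.5 and 1219 genes per cell. The AS cells were thus the fewest and shallowest, and 1 UMI there was worth 7.64 CPM. A count of 0 allowed a level of up to 5.91, 22.9, 3.24 and 2.21 CPM (3 UMIs), and every interval below covers counting error only. The median mitochondrial percentage was 2.19, 2.15, 1.89 and 2.80.

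Selp, the gene of P-selectin (ENSMUSG00000026580, GRCm38.p6 chr1:164115264-164150026), was the most widely detected of the 4 venous gate genes. It had a UMI in 70.8%, 77.8%, 78.3% and 73.2% of the venous cells. Grrp1 was detected in 58.4%, 51.4%, 50% and 62.0% of them. Ackr1, the atypical chemokine receptor of venules (ENSMUSG00000037872, chr1:173331886-173333503), was detected in 48.7%, 41.7%, 30.4% and 33.0%, and Chp2 in 42.9%, 15.3%, 32.8% and 34.6%. Selp or Ackr1 was present in 82.5%, 87.5%, 86.1% and 80.6%. All 4 genes were seen together in 8.44%, 1.39%, 3.30% and 3.89%, and a single gene carried the sum in 20.1%, 33.3%, 27.6% and 23.5%. The sum was exactly 2 UMIs, the threshold, in 29.2%, 48.6%, 46.5% and 33.9% of the cells. Just inside the threshold, Plvap was at 1161, 831, 872 and 1242 CPM, and in the endothelial cells just outside it, with a sum of 1 UMI and no other class, at 1048, 436, 644 and 819 CPM. Emcn was at 390, 343, 293 and 465 CPM just inside and 235, 192, 296 and 282 CPM just outside. Plvap was thus higher just inside in each library, and Emcn in all but MTZ-treated, where it was level.

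The 5 endothelial markers that the rule did not use (Tie1, Tek, Esam, Ecscr and Robo4) had UMIs in the venous cells of each library, and Gp9 and Gp1bb, which define platelets (another source of Selp), were at 0 in every library. Of the markers of valve and endocardial cells, Hapln1 was at 0 throughout, while Cytl1 was at 632, 267, 426 and 432 CPM, and Nfatc1 was higher in venous cells than in both other endothelial classes compared below (0.88 ± 0.19 and 0.93 ± 0.17 on the log2 scale). Transcripts of other cell types were present at levels that moved between libraries. The 6 adipocyte markers summed to 17.7, 7262, 125 and 2290 CPM, led by Cfd at 6178 CPM in AS. The 6 fibroblast markers summed to 2070, 550, 2846 and 2399 CPM. The smooth muscle and pericyte markers summed to 3259, 2062, 4403 and 3130 CPM, led by Tagln in all 4 libraries. Macrophage markers summed to 29.5, 1397, 132 and 24.99 CPM, with the defining gene Adgre1 at 0 in AS, where single cells held 100% of the C1qa, 95.5% of the C1qb and 90.9% of the Lyz2 UMIs. Red cell markers (3.94, 771, 118 and 10.3 CPM) and neutrophil markers (3.94, 557, 4.32 and 66.2 CPM, Csf3r at 0 in AS) were likewise highest in AS. T cell markers stayed between 14.0 and 68.7 CPM, B cell markers were highest in the library labelled Healthy (181 CPM), Schwann cell markers reached 90.6 CPM and mesothelial markers 5.15 CPM. A doublet caller marked 5, 1, 11 and 45 of the venous cells (3.25%, 1.39%, 2.59% and 9.72%), which were kept. It marked 9.87%, 1.77%, 5.77% and 13.1% of all kept barcodes. The share marked in a library was set in advance by its number of barcodes, so it does not measure a difference in doublets between libraries. Of the barcode sequences of the venous cells, 8, 5, 37 and 33 also occurred among the deposited barcodes of another library (5.19%, 6.94%, 8.73% and 7.13%), against 7.35%, 9.18%, 7.61% and 7.29% of all kept barcodes. Of these, 5, 3, 22 and 17 passed the filters in the other library too, and none was venous in both.

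Venous cells made up 9.90% of endothelial cells in the library labelled Healthy (95% Clopper-Pearson interval 8.46 to 11.5), 8.56% in AS (6.76 to 10.7), 15.2% in MTZ-treated (13.9 to 16.6) and 11.3% in MTZ-preventive (10.3 to 12.3). The share in MTZ-treated was 1.77 times that in AS (1.38 to 2.31), and in MTZ-preventive 1.32 times (1.03 to 1.71). Because deeper cells reach the gate more easily, the shares were also read after every cell was thinned to 1000 UMIs, and they became 3.82%, 5.64%, 8.26% and 6.37%. MTZ-treated remained the highest, at 1.47 times AS (1.03 to 2.13), but with looser cell filters MTZ-preventive was highest (9.29% against 8.87% in MTZ-treated). After thinning, the interval of the ratio for MTZ-preventive, 1.13 (0.796 to 1.64), included 1. The library labelled Healthy was at 1.16 times AS before thinning (0.868 to 1.55) and 0.679 times after (0.436 to 1.06), so it had no stable position. Of all kept barcodes the venous cells were 1.25%, 3.27%, 5.88% and 2.84%, so the order of MTZ-preventive and AS also turned with the denominator (ratio 0.867, 0.676 to 1.13). With 1 library per condition, how far the pools of aortas differ in retained vasa vasorum and surrounding tissue was not tested.

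**Figure D1:**
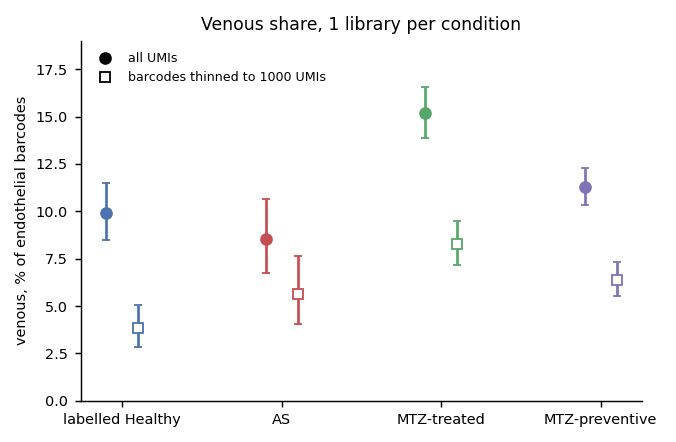
Venous cells as a percent of endothelial cells (y axis) in the 4 libraries (x axis), with filled circles for all UMIs, open squares after thinning each cell to 1000 UMIs, and bars for 95% Clopper-Pearson intervals. MTZ-treated was highest both ways, at 15.2% and 8.26%, and all shares dropped on thinning.

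To ask what else set the venous cells apart, their summed UMIs were compared in each library with those of 675 arterial cells (164, 20, 265 and 226) and 2814 small vessel cells (465, 340, 635 and 1374), which the same rule defined from its other gates. The test was edgeR's quasi-likelihood test with the library as a block and Benjamini-Hochberg adjustment, called at an adjusted p below 0.05, and log2 fold changes are given ± SE over 4 libraries. The 4 libraries are 4 conditions, so the spread it measures is between conditions. Against arterial cells, 880 of 8387 genes were higher in venous cells (10.5%) and 574 were lower (6.84%). Against small vessel cells, 444 were higher (5.29%) and 311 lower (3.71%). These shares over all genes stand beside every count of list members below, and no list was tested as a set. Both contrasts shared 274 higher and 63 lower genes. The contrasts share the venous sums and are not independent of each other. Without TMM scaling the median log2 fold change of all genes was -0.145 and -0.108 (0.00621 and -0.0145 with it), and the higher genes made up 40.4% of the calls in place of 60.5% against arterial cells and 44.4% in place of 58.8% against small vessel cells, so the balance of higher and lower genes depends on the scaling.

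Plvap and the transcription factor gene Nr2f2 separated the venous cells from both other classes. Plvap (ENSMUSG00000034845, chr8:71497753-71511806), the gene of the diaphragm protein, was at 1695, 848, 961 and 1675 CPM in venous cells, at 185, 400, 214 and 207 CPM in arterial cells and at 238, 215, 246 and 349 CPM in small vessel cells. The lowest venous value lay above the highest value of either other class. Its log2 fold change was 2.77 ± 0.23 against arterial cells (edgeR adjusted p = 1.31e-06) and 2.39 ± 0.21 against small vessel cells (adjusted p = 1.7e-06). After thinning to 1000 UMIs, 64.9%, 62.5%, 61.6% and 70.6% of venous cells had a Plvap UMI, against 4.81%, 3.88%, 5.199% and 6.70% of smooth muscle cells, a measure of free RNA (before thinning, median depths were 2896, 1414, 1812 and 2465 UMIs in venous and 1901, 1416, 1898 and 1788 UMIs in smooth muscle cells, and the venous shares were 84.4%, 75.0%, 78.3% and 86.2%). Nr2f2 (ENSMUSG00000030551, chr7:70351946-70366746) was at 173, 45.8, 105 and 133 CPM in venous cells. It was at 25.1, 28.6, 21.96 and 19.1 CPM in arterial and 81.5, 21.97, 57.0 and 54.8 CPM in small vessel cells, higher in venous cells of every library. The log2 differences were 2.74 ± 0.22 (edgeR adjusted p = 1.24e-06) and 1.20 ± 0.17 (adjusted p = 0.000167).

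Nrp2, a semaphorin and VEGF-C receptor of veins and lymphatics (ENSMUSG00000025969, chr1:62703317-62818692), varied little among the libraries, at 114, 137, 134 and 138 CPM. It was higher than in arterial cells by 3.72 ± 0.27 and than in small vessel cells by 1.46 ± 0.19 on the log2 scale (edgeR adjusted p = 4.36e-07 and 6.55e-05). Il1r1, the interleukin-1 receptor, was at 29.5, 91.6, 79.9 and 95.6 CPM and higher in both contrasts (2.26 ± 0.27 and 1.43 ± 0.21). Ephb4, the venous receptor for ephrin-B2, was at 140, 91.6, 111 and 113 CPM. It was higher than in arterial cells (1.18 ± 0.22, edgeR adjusted p = 0.00146), where AS alone had the opposite order (114 CPM on 20 arterial cells), and at 0.47 ± 0.19 against small vessel cells (adjusted p = 0.165). Aplnr, the apelin receptor, was at 29.5, 0, 31.3 and 8.09 CPM, with 55 UMIs in all venous cells and 1 in all arterial cells (ratio of CPM 44.7, 7.70 to 1798 by counting error), and was at -0.38 against small vessel cells (edgeR adjusted p = 0.596).

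Vwf, Emcn and Lrg1 were less clear than Plvap. Vwf (ENSMUSG00000001930, chr6:125552948-125686679), which encodes the clotting protein of Weibel-Palade bodies, was at 723, 428, 427 and 619 CPM in venous and 747, 829, 674 and 654 CPM in arterial cells, and at 76.2, 105, 207 and 95.02 CPM in small vessel cells. It thus set the venous cells apart from small vessel cells (2.34 ± 0.26, edgeR adjusted p = 1.83e-05) but was at -0.14 ± 0.25 against arterial cells (adjusted p = 0.776). Emcn, the gene of the sialomucin endomucin (ENSMUSG00000054690, chr3:137341062-137431069), was at 514, 206, 352 and 551 CPM. It was higher than in arterial cells (2.001 ± 0.32, edgeR adjusted p = 0.000357), though level in AS at 206 against 200 CPM. Against small vessel cells it was 0.96 ± 0.28 higher (adjusted p = 0.0401), a call lost in 7 of 14 alternatives, among them without the AS, MTZ-treated or MTZ-preventive library (adjusted p = 0.083, 0.13 and 0.159). Lrg1, a secreted glycoprotein induced by inflammation (ENSMUSG00000037095, chr17:56119678-56121946), was at 882, 1901, 922 and 2062 CPM in venous cells, 32.2, 2457, 196 and 260 CPM in arterial cells and 88.6, 1026, 273 and 1005 CPM in small vessel cells. Its calls (2.60 ± 0.51 and 1.93 ± 0.46, edgeR adjusted p = 0.00184 and 0.0126) were lost without the library block (adjusted p = 0.303 and 0.535), and the second also without MTZ-treated (adjusted p = 0.058). Of the 9 venous markers that the gate did not use, 8 were higher and none lower against arterial cells (median 2.26 on the log2 scale), and 7 were higher and none lower against small vessel cells (median 1.43). The gates chose the classes by other venous, arterial and small vessel markers, so such counts are not independent of the rule.

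**Figure D2:**
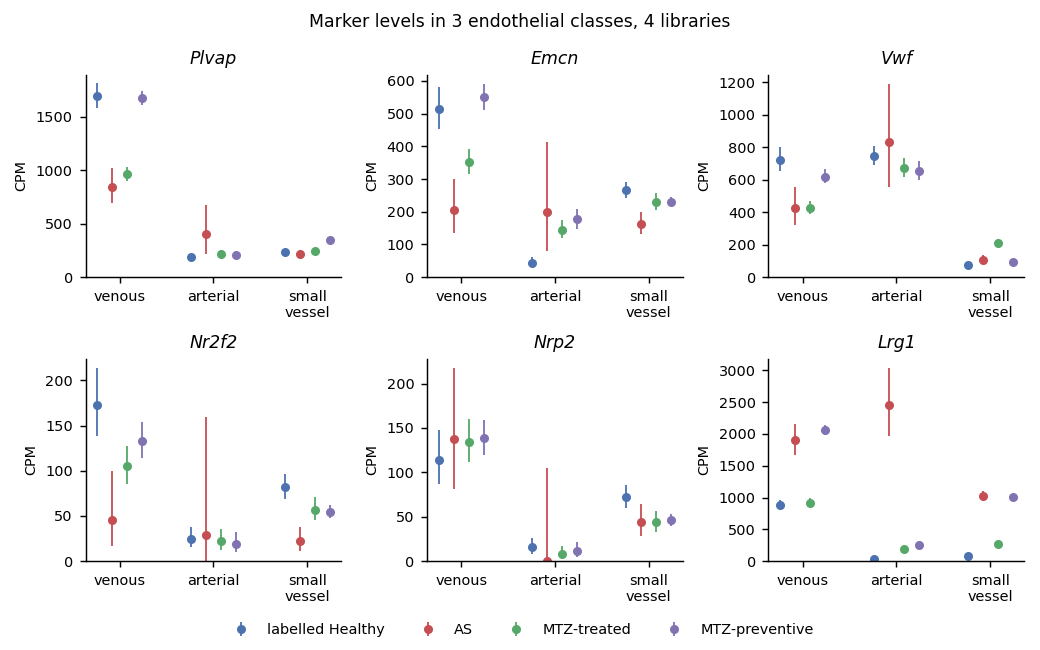
Levels in CPM (y axis) of Plvap, Emcn, Vwf, Nr2f2, Nrp2 and Lrg1 in venous, arterial and small vessel cells (x axis), 1 point per library with 95% exact Poisson intervals as bars. Within each of the 4 libraries Plvap, Nr2f2 and Nrp2 were highest in venous cells, while Vwf overlapped between venous and arterial cells, Emcn between classes through the AS library, and Lrg1 between all 3 classes.

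Of 12 leukocyte adhesion genes tested, 4 were higher in venous cells in each contrast (10.5% and 5.29% over all genes), and the list medians were 0.127 and -0.049 on the log2 scale. Sele, the gene of E-selectin (ENSMUSG00000026582, chr1:164039614-164058487), lies near Selp and was not part of the gate. It was at 84.7, 130, 174 and 138 CPM in venous cells and at 1.18, 5.07, 22.2 and 7.19 CPM in small vessel cells, a difference of 4.09 ± 0.37 on the log2 scale (edgeR adjusted p = 1.96e-06). In arterial cells it was at 2.39, 114, 33.6 and 8.21 CPM (3.28 ± 0.42, adjusted p = 5.44e-05), where the AS value of 114 CPM came from 20 cells. After thinning, 10.4%, 11.1%, 13.2% and 13.6% of venous cells had a Sele UMI, against at most 0.347% of the smooth muscle cells chosen without endothelial UMIs. Icam1 (ENSMUSG00000037405, chr9:21015940-21028814), the ligand of leukocyte integrins, was at 455, 802, 483 and 748 CPM in venous, 215, 486, 230 and 331 CPM in arterial and 134, 198, 178 and 181 CPM in small vessel cells. The venous level was the highest of the 3 classes in each library (1.26 ± 0.15 and 1.91 ± 0.14, edgeR adjusted p = 2.8e-05 and 6.22e-07). Vcam1 (ENSMUSG00000027962) was at 260, 229, 383 and 419 CPM in venous cells and, like Vwf, was shared with arterial cells (305, 371, 486 and 425 CPM). It differed from small vessel cells by 2.31 ± 0.24 (edgeR adjusted p = 1.05e-05) and was at -0.08 ± 0.23 against arterial cells (adjusted p = 0.867). Bst1, which encodes an ectoenzyme of NAD metabolism, was low (27.6, 7.64, 34.6 and 54.4 CPM) and higher in both contrasts (1.53 and 3.42, edgeR adjusted p = 0.0096 and 2.21e-05).

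Besides these, Jam2 was higher than in arterial cells (0.61 ± 0.18, edgeR adjusted p = 0.0252), and some adhesion genes were lower. Podxl, a sialomucin that faces the lumen, was lower in venous than in arterial cells (-1.64, edgeR adjusted p = 0.000228) and small vessel cells (-1.13, adjusted p = 0.00574). Icam2, which resting endothelium carries, was lower than in arterial cells (-0.99, edgeR adjusted p = 0.000616). Over the 12 adhesion genes tested, 2 were lower in each contrast. Of the 13 Weibel-Palade body and hemostasis genes, 4 were higher and 1 lower against arterial cells and 6 higher and none lower against small vessel cells, including Angpt2 in the first (1.79, edgeR adjusted p = 0.00434) and Rab27a in both (1.503 and 1.91, adjusted p = 0.0154 and 0.00183). Among anticoagulant genes, Procr, the endothelial protein C receptor (ENSMUSG00000027611), and Tfpi, the tissue factor pathway inhibitor, were higher in both contrasts. Procr differed by 0.95 and 2.06 (edgeR adjusted p = 0.0142 and 3.21e-05), and Tfpi by 1.56 and 1.12 (adjusted p = 0.0068 and 0.0226). Edn1, which encodes the vasoconstrictor endothelin-1, lay between the classes, lower than in arterial cells (-0.73, edgeR adjusted p = 0.0163) and higher than in small vessel cells (0.88, adjusted p = 0.00736).

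Of the 17 genes tested of the NF-kB and cytokine response list, 14 were higher and 1 lower in venous than in arterial cells (median 1.09), and 11 were higher and none lower against small vessel cells (median 0.726). Across the alternatives, 7 to 15 and 3 to 14 of them were higher, the lowest being after thinning against arterial cells and without the library block against small vessel cells. Nfkbia, the NF-kB inhibitor that NF-kB itself induces (ENSMUSG00000021025), was at 2379, 2848, 2063 and 2902 CPM in venous cells, 634, 1343, 1004 and 1530 CPM in arterial and 1380, 2028, 1323 and 1978 CPM in small vessel cells. It was highest in the venous cells of each library (1.44 ± 0.16 and 0.73 ± 0.15, edgeR adjusted p = 1.51e-05 and 0.00535). Nfkbiz, a nuclear cofactor of NF-kB (ENSMUSG00000035356), was nearly level among the libraries at 475, 473, 404 and 455 CPM. Both other classes were at most 286 CPM (1.98 ± 0.21 and 1.80 ± 0.19, edgeR adjusted p = 8.13e-06 and 8.88e-06). Socs3, the feedback inhibitor of cytokine receptors, was at 790, 703, 732 and 1164 CPM and higher in both contrasts (1.32 and 0.77, edgeR adjusted p = 5.35e-05 and 0.00426).

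The cytokine genes themselves were low but sharply divided. Csf3, the gene of granulocyte colony-stimulating factor (ENSMUSG00000038067, chr11:98700183-98703631), was at 118, 84.0, 74.5 and 106 CPM in venous cells. Arterial cells held 0, 0, 2.58 and 6.84 CPM and small vessel cells 0, 8.45, 7.41 and 11.2 CPM, so the values of the classes did not overlap, although 0 in the AS arterial cells allows up to 85.7 CPM (3.95 ± 0.44 against small vessel cells, edgeR adjusted p = 1.66e-05, and 5.16 ± 0.62 against arterial cells, adjusted p = 3e-05, a fitted value that rests on few arterial UMIs). Il6 was at 33.5, 7.64, 39.96 and 35.3 CPM in venous cells, the AS value being 1 UMI. It was higher in both contrasts (3.44 ± 0.55 and 1.504 ± 0.36, edgeR adjusted p = 0.000337 and 0.0121). Il6st (ENSMUSG00000021756), the signalling chain shared by receptors of the IL-6 family, was at 500, 382, 487 and 564 CPM, above all values of the other classes, which reached 353 CPM (1.02 ± 0.16 and 1.81 ± 0.16, edgeR adjusted p = 0.000385 and 1.7e-06). The only member that was lower than in arterial cells was Tnfaip2 (-1.56, edgeR adjusted p = 0.00827). Nfkb1, the p105 and p50 subunit, was at 0.68 in both contrasts (adjusted p = 0.0613 and 0.0579).

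Of the 18 genes of that list, 13 had at least 1 promoter window of 250 bases before to 50 bases after a start site in RefSeq (GRCm38.p6), with 16 windows in all since a gene can have several starts. A match to the kappaB consensus on either strand was in 7 of these windows, in 7 genes, and in 1480 of 32851 windows of all genes (4.51%). Of the 11 genes higher than both other classes, 8 had a window and 5 held a match. These 5 are shown as 60 bases on the gene's strand, 5′ to 3′, with 1 match in capitals, since they are the members that moved in both contrasts and carry the letters. The window of Il1r1 is at a start site inside the gene and not at its first one. A match is a description of the sequence and not a binding site.
Il1r1 (chr1:40266336-40266395): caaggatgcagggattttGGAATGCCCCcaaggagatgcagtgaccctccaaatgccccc
Il6 (chr5:30013045-30013104): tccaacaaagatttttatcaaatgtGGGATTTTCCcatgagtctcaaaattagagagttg
Tnfaip3 (chr10:19015501-19015560, minus strand, 2 matches in the window): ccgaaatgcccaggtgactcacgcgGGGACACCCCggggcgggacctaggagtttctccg
Nfkbia (chr12:55492642-55492701, minus strand): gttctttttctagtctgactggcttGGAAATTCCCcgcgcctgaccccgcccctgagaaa
Ier3 (chr17:35821596-35821655): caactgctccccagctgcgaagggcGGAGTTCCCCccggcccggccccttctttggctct

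The match of Nfkbia began 29 bases and that of Il6 44 bases before the start site. Tnfaip3, which encodes the NF-kB inhibitor A20, was higher by 1.01 and 0.66 (edgeR adjusted p = 0.00325 and 0.0318), and Ier3, an early response gene, by 1.08 and 0.73 (adjusted p = 0.00019 and 0.00548). Il4ra and Irf1 also held a match but were higher than arterial cells only, at 1.68 and 1.17 (edgeR adjusted p = 0.000261 and 0.000694), with 0.67 and 0.45 against small vessel cells (adjusted p = 0.0516 and 0.161).

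Of 13 immediate early genes tested, 11 were higher and none lower against arterial cells (median 0.81), and 4 were higher and none lower against small vessel cells (median 0.432). Egr1 and Atf3, stress- and growth-factor-induced transcription factors, were higher in both (Egr1 1.34 and 0.82, Atf3 0.94 and 0.75), as was Fosb (1.12 and 0.96, edgeR adjusted p = 0.000179 and 0.000689). After thinning, 2 and 7 were higher, and without the library block 5 and 1. Such genes also respond to tissue dissociation, and its part in the NF-kB and immediate early differences was not tested. Of 9 heat shock genes, 3 and 1 were higher and none lower, counts too small to set apart from the shares over all genes (10.5% and 5.29% higher). Of 8 flow-response genes, 3 were higher and 2 lower against arterial cells and 1 was higher and 1 lower against small vessel cells, with Klf4 higher in both (0.96 and 0.54, edgeR adjusted p = 0.000431 and 0.029) and Klf2, the main shear-stress factor, at -0.17 and -0.19 and not called.

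Of 12 chemokine genes, 6 were higher and 1 lower than in arterial cells, and 3 were higher and 2 lower than in small vessel cells. Cxcl10, which draws CXCR3-bearing T cells, was at 309, 428, 332 and 222 CPM in venous cells and at 20.3, 143, 11.6 and 30.1 CPM in arterial cells (3.98, edgeR adjusted p = 2.46e-05). In small vessel cells it was at 56.7, 50.7, 71.8 and 191 CPM (1.95, adjusted p = 0.00163). Cxcl9 had 84 UMIs in all venous cells and 3 in all arterial cells (ratio of CPM 22.8, 7.53 to 113 by counting error) and was at -0.14 against small vessel cells (adjusted p = 0.82). Cxcl16 had the reverse pattern, at 0.38 and 1.86 (edgeR adjusted p = 0.405 and 0.000278). Cxcl12, a homeostatic chemokine, was lower than in small vessel cells (-1.78, edgeR adjusted p = 0.00235). Of 7 acute phase genes, 5 and 2 were higher and none lower. Of 14 interferon-response genes, 4 were higher and none lower against arterial cells and 3 were higher and 1 lower against small vessel cells, with Ifit1 (1.57 and 1.15) and Ifitm3 (1.07 and 0.61) in both.

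The venous cells stood between arterial and small vessel cells in lipid handling. Fabp4, the fatty acid carrier (ENSMUSG00000062515), was at 7934, 7491, 5603 and 6259 CPM in venous cells, 575, 3171, 1032 and 1521 CPM in arterial cells and 19167, 15091, 13775 and 18516 CPM in small vessel cells. No 2 of these classes overlapped (2.57 ± 0.27 and -1.19 ± 0.25, edgeR adjusted p = 9.02e-06 and 0.00528). Kdr, the main VEGF receptor, had the same order, with venous cells at 78.8, 130, 113 and 107 CPM (2.47 and -1.19, adjusted p = 9.02e-06 and 0.000487). Cd36, the fatty acid translocase, differed by 2.80 and -1.82 on the log2 scale, Lpl, lipoprotein lipase, by 1.55 and -2.66, and Pparg, the lipid-sensing nuclear receptor, by 1.49 and -2.20 (adjusted p = 0.0143 and 3.4e-05). Scarb1, the HDL receptor, was higher than in arterial cells by 3.62 ± 0.31 (edgeR adjusted p = 1.4e-06) and at -0.52 against small vessel cells (adjusted p = 0.145). Of the 11 lipid genes, 8 were higher and none lower against arterial cells (median 1.22), and none was higher and 5 were lower against small vessel cells (median -0.525). Of the 8 small vessel markers that the gate did not use, 6 were higher than in arterial cells and all 8 lower than in small vessel cells. The gates chose the classes by markers of the same kind, so these counts, and the lipid genes among those markers, are not independent of the rule. Fibroblast and smooth muscle markers also moved against arterial cells (3 of 6 and 3 of 7 higher), and adipocyte markers against small vessel cells (4 of 6 lower), and their part in the lipid differences was not tested.

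Several arterial genes were lower in the venous cells. Bmx, a kinase of arterial endothelium, was at 13.8, 22.9, 19.4 and 16.9 CPM against 111, 85.7, 107 and 116 CPM in arterial cells (-2.50, edgeR adjusted p = 2.42e-05). Clu was at 931, 1275, 1163 and 905 CPM against 3022, 5085, 4425 and 4051 CPM (-1.73, adjusted p = 2.37e-06). Neither gene overlapped between these classes. Cytl1, listed with the valve and endocardial markers, was at 3415, 2228, 2555 and 3043 CPM in arterial cells and lower in venous cells (-2.47 ± 0.35, edgeR adjusted p = 0.000118). In the Notch pathway, the target Hey2 was lower than in arterial cells (-2.29, edgeR adjusted p = 0.00081), the receptor Notch4 lower in both contrasts (-1.35 and -1.84, adjusted p = 0.00467 and 0.000211), the ligand Jag1 lower than in arterial cells (-0.87, adjusted p = 0.0316) and the ligand Dll4 lower than in small vessel cells (-1.36, adjusted p = 0.00377). Sox17, which acts upstream of Notch, was lower in both contrasts (-1.31 and -1.88), while its relative Sox7 was higher in both (1.31 ± 0.22 and 1.07 ± 0.20, adjusted p = 0.000502 and 0.00192). Of the 14 arterial identity and Notch genes, 1 was higher, Sox7, and 7 lower in each contrast (medians -0.851 and -0.912). Of the 9 arterial markers outside the gates, none was higher and 7 were lower than in arterial cells, and 1 was higher and 4 lower than in small vessel cells. Like the other marker counts, these are not independent of the gates.

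**Figure D3:**
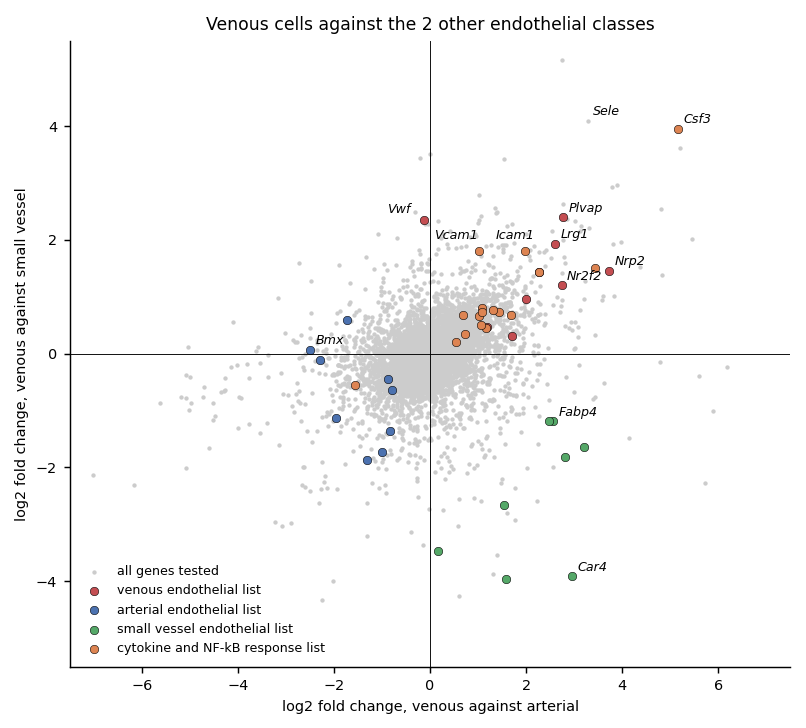
Log2 fold changes of all genes tested in venous against arterial cells (x axis) and venous against small vessel cells (y axis), from edgeR over 4 libraries, with 4 gene lists coloured and some genes named. Plvap, Sele and Nrp2 lie high on both axes, Vwf and Vcam1 near 0 on the x axis only, and small vessel genes such as Car4 to the right and below 0.

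The water channel gene Aqp1 (ENSMUSG00000004655) was among the 10 genes with the highest fold change against arterial cells. Its level was 1034, 977, 928 and 1117 CPM in venous, at most 114 CPM in arterial and 472, 247, 318 and 494 CPM in small vessel cells (4.36 ± 0.31 and 1.53 ± 0.24, edgeR adjusted p = 4.36e-07 and 0.000398). The others of the 10 were Hdc, Olr1, Csf3, Lhx6, Cxcl9 and Cxcl10, and Hba-a1, Scgb3a1 and Gpr160, which had no UMI in arterial cells. Hdc makes histamine (ENSMUSG00000027360), and was at 35.4, 38.2, 32.4 and 44.1 CPM in venous cells, where it hardly varied, and at 2 UMIs in all arterial cells (ratio of CPM 45.9, 12.4 to 384 by counting error, edgeR adjusted p = 3.47e-06). Against small vessel cells it was higher by 2.02 ± 0.26 (adjusted p = 7.21e-05). Olr1, the receptor for oxidised LDL (ENSMUSG00000030162), was at 41.4, 30.5, 57.2 and 36.8 CPM in venous cells, with 3 UMIs in all arterial cells (ratio of CPM 34.7, 11.6 to 170 by counting error, adjusted p = 9.97e-05) and at most 10.4 CPM in small vessel cells (3.61 ± 0.45, adjusted p = 5.57e-05). Lhx6 was at 63.0, 30.5, 29.2 and 45.6 CPM. Scgb3a1 was at 0, 91.6, 4.32 and 2.94 CPM, Gpr160 at 3.94, 22.9, 7.56 and 2.21 CPM and Hba-a1, an alpha-globin gene whose reads are uncertain because of its near-identical copy, at 3.94, 22.9, 13.0 and 1.47 CPM, so these rest on a few UMIs. Against small vessel cells the highest were Sele, Csf3, Olr1, Tox (3.51), Nt5e (3.43), Bst1, Pla2g7 (2.97), Plekha7 (2.93), Klk8 (2.79) and Fam174b (2.63). Tox is a transcription factor gene, Nt5e encodes the ectonucleotidase CD73, and Pla2g7 encodes a phospholipase carried on lipoproteins.

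The genes furthest below arterial cells were Npy (-7.01), Bex2, Dbh, Pcsk1n, Unc13d, Adh7 (-5.08), Syt1, Th, Slc6a2 and Rtn1. Most of these are genes of neurons (Th and Dbh make catecholamines), and 2, 0, 1 and 1 arterial barcodes with at least 3 of 6 such genes held 27.5%, 0%, 7.04% and 5.25% of the arterial UMIs. In the venous cells 0, 0, 1 and 5 such barcodes held 0%, 0%, 0.341% and 0.578%. Without them, an alternative chosen after the data had been seen, 668 of 7845 genes were higher (8.51%) and 493 lower (6.28%) than in arterial cells, 942 of these calls were shared with those above, and the lowest genes included Adh7, Unc13d, Ecrg4, Efna5, Krt18, Gper1, Ptprj, Sfrp1 and Eps8l2. Against small vessel cells the lowest were Car7 (-4.33), Cldn15 (-4.00), Aqp7 (-3.97), Car4 (-3.92), Slc26a10 (-3.88), Btnl9 (-3.54), Timp4 (-3.47), Fam181b (-3.20), Nrip2 (-3.13) and Gper1 (-3.03). Aqp7 carries glycerol and Timp4 inhibits metalloproteinases.

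Carbonic anhydrases, the enzymes that MTZ inhibits, were low in venous cells. Car4, the membrane-bound form of capillaries, was at 5.91, 145, 4.32 and 16.2 CPM in venous cells against 314, 625, 188 and 290 CPM in small vessel cells. Car3, a cytosolic form abundant in fat, was at 13.8, 298, 21.6 and 69.8 CPM against 156, 404, 456 and 479 CPM (-2.75 ± 0.48, edgeR adjusted p = 0.00129). Both were highest in the AS venous cells, where the adipocyte markers, of which Car3 is one, were also highest, and the part of fat cell RNA was not tested. Car8, a catalytically inactive relative, was at 23.6, 7.64, 44.3 and 69.8 CPM and higher than in small vessel cells (1.57 ± 0.32, adjusted p = 0.00421). Car2 had at most 10 UMIs in any library's venous cells. Of the 6 tested, 2 were higher and none lower against arterial cells (Car4 and Car13), and 1 was higher and 3 were lower against small vessel cells.

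Matrix and caveolar genes were split. Against arterial cells, 3 of 18 matrix genes were higher and 7 lower, and against small vessel cells 2 were higher and 5 lower. Col15a1, a collagen of venous and small vessel basement membranes, was at 57.1, 91.6, 79.9 and 59.5 CPM and higher in both (3.20 and 0.97, edgeR adjusted p = 3e-05 and 0.0255). Eln and Mgp, genes of elastin and of the matrix Gla protein that restrains calcification, were lower than in arterial cells (-1.56 and -1.36), and Fbln5 was lower in both contrasts (-1.97 and -1.13). Of 11 caveolae and permeability genes, 4 were higher and 3 lower against arterial cells and 3 higher and 2 lower against small vessel cells. Cav1, the caveolar coat protein, was at 644, 229, 409 and 499 CPM and lower than in arterial cells (-0.63, adjusted p = 0.0238). Neither edgeR nor DESeq2 called a gene in either contrast among 8 MHC class I, 4 MHC class II and 4 metallothionein and zinc genes. At an unadjusted p under 0.05 in edgeR, 1 class I gene was lower than in arterial cells and 1 metallothionein and zinc gene lower than in small vessel cells. Of 12 BMP and TGF-beta genes, 2 were higher and 2 lower, then 2 higher and 1 lower, and of 9 mesenchymal genes 3 were higher and 1 lower, then 1 higher and none lower. Over all genes 10.5% were higher and 6.84% lower, then 5.29% higher and 3.71% lower, and these counts are too small to set apart from those shares.

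The venous cells were also split by the gate gene with most UMIs. The split uses the genes of the rule, so its values are description only. In MTZ-treated, 176 cells were led by Selp, 49 by Grrp1, 30 by Chp2 and 17 by Ackr1, and 152 were tied, and in MTZ-preventive the numbers were 189, 92, 35, 16 and 131. In MTZ-treated, Sele was at 277 CPM (225 to 336, 95% exact Poisson interval) in the Selp-led and 64.2 CPM in the Chp2-led cells. In MTZ-preventive it was at 221 CPM (184 to 264) and 74.3 CPM. Vwf had the opposite order, at 380 CPM in Selp-led and 631 CPM in Chp2-led cells of MTZ-treated, and at 493 and 1073 CPM in MTZ-preventive. Emcn followed Vwf, at 260 and 642 CPM in MTZ-treated and 468 and 734 CPM in MTZ-preventive. In the library labelled Healthy, 15 Chp2-led cells had Vwf at 1559 CPM and Emcn at 903 CPM, with Sele at 14.6 CPM on 1 UMI. Sele was at 97.4 CPM in Selp-led and 108 CPM in Grrp1-led cells there. In AS, Sele was at 182 CPM in both Selp-led and Grrp1-led cells, and Vwf was at 657 CPM in the 31 Selp-led and 91.0 CPM in the 10 Grrp1-led cells, on 2 UMIs in the latter. Grrp1-led cells were between the Selp-led and Chp2-led cells in Vwf in both MTZ libraries, at 534 and 688 CPM.

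**Figure D4:**
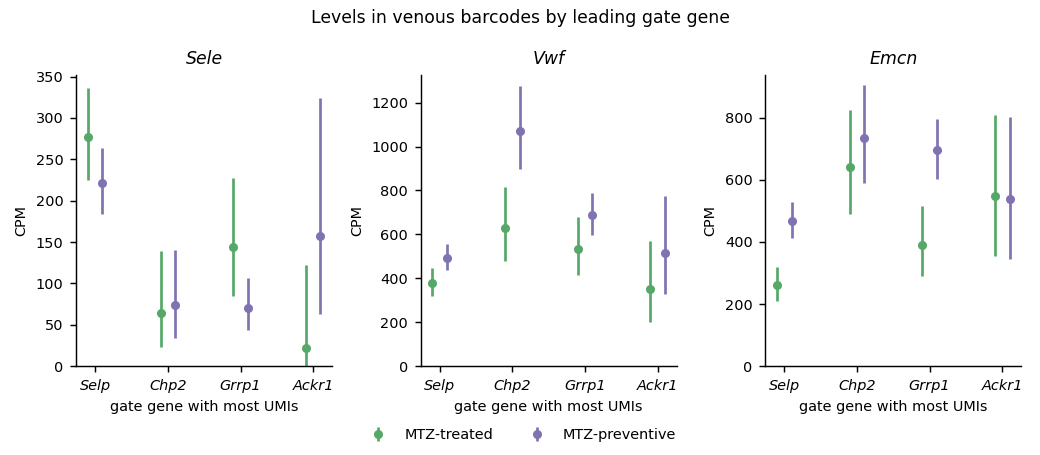
Levels in CPM (y axis) of Sele, Vwf and Emcn in venous cells grouped by the gate gene with most UMIs (x axis), in MTZ-treated and MTZ-preventive, with 95% exact Poisson intervals as bars. Selp-led cells had the highest Sele in both libraries (277 and 221 CPM) and less Vwf and Emcn than Chp2-led cells.

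Conditions were compared by setting the venous cells of each library beside the 72 of AS, which all 3 comparisons share. Genes were counted when they reached 100 CPM in 1 of the 2 libraries and 20 UMIs in both together, and a count is of genes past 2-fold and not of tested genes. In the library labelled Healthy, 169 of 1675 genes were at least 2-fold higher than in AS (10.1%) and 130 at least 2-fold lower (7.76%). In MTZ-treated, 91 of 1613 were higher (5.64%) and 103 lower (6.39%), and in MTZ-preventive 103 of 1617 were higher (6.37%) and 85 lower (5.26%). The median log2 ratios were 0.0138, 0.0625 and -0.00778, and under TMM scaling they were 0.109, 0.252 and 0.131. Ratios carry exact 95% intervals for counting error between these libraries only.

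The genes that differed most were largely those of other cell types. Cfd (adipsin) was at 1.97, 6178, 89.6 and 1995 CPM, and 39.2% of its AS UMIs were in 1 of 25 cells. In MTZ-treated 1 cell held 92.8% of the Cfd UMIs, and the level was 6.50 CPM without that cell. Hp (haptoglobin) was at 0, 1955, 25.9 and 1108 CPM. In the library labelled Healthy the lowest genes were these with Hbb-bs, Cidec and Cyp2e1, all 3 at 0, against 634, 321 and 321 CPM in AS. In MTZ-treated the lowest were Cfd, Hp, Cidec (5.40 CPM), and the neutrophil genes S100a8 and S100a9 (both 2.16 CPM, against 244 and 206 CPM). In MTZ-preventive they were C1qa (0 against 489 CPM), C1qb, C1qc, Lyz2 and Hbb-bs. Most AS UMIs of the macrophage genes were in 1 cell (64 of 64 of C1qa, 42 of 44 of C1qb and 60 of 66 of Lyz2). Without the cell with most UMIs of the gene, AS was at 0, 16.2 and 48.5 CPM. MTZ-treated was at 21.6, 17.3 and 83.2 CPM with all cells and at 18.4, 14.1 and 79.0 CPM without its own such cell. With both treated alike, the order with MTZ-treated turned for C1qa and Lyz2 but not for C1qb.

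Fibroblast genes were among the highest in the MTZ libraries relative to AS, and they were above AS in the library labelled Healthy too. Sfrp4, Clec3b, Col1a1 and Col3a1, genes of fibroblasts, were at 619, 406, 889 and 795 CPM in MTZ-treated. They were at 53.5, 30.5, 122 and 122 CPM in AS and at 502, 437, 632 and 874 CPM in the library labelled Healthy. Spp1 was at 1677 against 84.0 CPM, but 96.9% of its UMIs came from 1 cell, and it was at 52.5 CPM without that cell. MTZ-preventive was led by Gsn (1086 against 153 CPM), Bgn (1041 against 153 CPM), Clec3b (343 CPM), Ccdc3 (256 against 15.3 CPM) and Apod (160 against 0 CPM). Gsn, Bgn, Ccdc3 and Apod were at 729, 1217, 185 and 7.88 CPM in the library labelled Healthy. Bgn was also abundant in arterial cells (857 to 2887 CPM), and Ccdc3 was higher in venous than in arterial cells (0.79 ± 0.23, edgeR adjusted p = 0.025). The part of RNA from fibroblasts, fat cells and macrophages in these ratios was not tested. Besides Apoe, the library labelled Healthy was led by Cd74, Jchain (201 against 0 CPM, in 6 cells), Dbp, a clock-controlled transcription factor (268 against 7.64 CPM), and H2-Aa.

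Metallothioneins and Lrg1 separated the 4 libraries into pairs. Mt1 (ENSMUSG00000031765), a zinc-binding protein gene induced by metals, glucocorticoids and inflammation, was at 898, 5895, 1214 and 4687 CPM in venous cells. The library labelled Healthy and MTZ-treated were at 0.152 (0.135 to 0.171) and 0.206 (0.188 to 0.226) times AS, while MTZ-preventive was at 0.795 (0.738 to 0.858). Small vessel cells had the same pairs (592, 8561, 1195 and 7676 CPM), and so did Mt2 in venous cells (217, 1008, 189 and 807 CPM). Lrg1 was at 0.464 (0.396 to 0.544), 0.485 (0.421 to 0.561) and 1.08 (0.952 to 1.24) times AS. The adipocyte markers divided the libraries in the same pairs, and their part was not tested.

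MHC class II genes were lowest in AS. Cd74, the invariant chain of MHC class II, was at 1400, 122, 283 and 462 CPM, with 12 of the 16 AS UMIs in 1 cell. H2-Aa was at 256, 7.64, 79.9 and 105 CPM, H2-Ab1 at 256, 38.2, 108 and 108 CPM and H2-Eb1 at 305, 38.2, 104 and 102 CPM, on 1, 5 and 5 AS UMIs. Small vessel cells had 724, 128, 236 and 741 CPM of Cd74. B cell markers were highest in the library labelled Healthy, and 13.0% of its venous cells also had a B cell receptor contig, so the part of B cell RNA in that library was not tested. The class I gene H2-K1 was at 1699, 794, 890 and 967 CPM, 2.14 times AS (1.74 to 2.65) in the library labelled Healthy. H2-D1 was at 1869, 848, 960 and 1179 CPM, and B2m, the shared light chain, at 1522, 825, 1071 and 894 CPM. Among interferon-response genes, Bst2 was at 675, 252, 488 and 323 CPM and Ifit1 at 156, 45.8, 84.2 and 81.6 CPM.

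Venous marker genes varied between libraries. Plvap was at 2.0 (1.64 to 2.46), 1.13 (0.930 to 1.39) and 1.98 (1.63 to 2.41) times its AS level, so MTZ-treated was close to AS and the other libraries were not. Emcn was at 2.49 (1.67 to 3.86), 1.71 and 2.67 times AS, and Nr2f2 at 3.78 (1.67 to 10.6), 2.29 and 2.90 times, on 6 AS UMIs. Procr was at 463, 137, 323 and 390 CPM, with ratios of 3.37 (2.08 to 5.78), 2.35 (1.46 to 4.02) and 2.83 (1.78 to 4.82). Vim, the intermediate filament gene, was at 6213, 2031, 5122 and 5807 CPM. The AS cells were the shallowest and had the highest adipocyte, red cell and neutrophil marker sums, and the part of either was not tested.

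The capture and cytokine genes were set beside AS in the same way. Sele was at 0.652 (0.364 to 1.22), 1.34 (0.811 to 2.36) and 1.06 (0.647 to 1.87) times AS and each interval includes 1. A 2-fold lower level in the library labelled Healthy and a 2-fold higher level in MTZ-treated lie within these intervals. Icam1 was at 0.567, 0.602 and 0.932 times AS. Of the NF-kB and cytokine genes counted, none of 11 in the library labelled Healthy, 2 of 10 in MTZ-treated (Il4ra and Nfkb1, lower) and none of 12 in MTZ-preventive were past 2-fold, counts too small to set apart from the shares over all genes above. Cxcl2, a neutrophil chemokine, was lower than in AS in all 3 (23.6, 229, 62.6 and 86.0 CPM). Ccl2, the monocyte chemokine (ENSMUSG00000035385), was at 25.6, 53.5, 334 and 218 CPM on 7 AS UMIs. A single cell held 60.8% of its UMIs in MTZ-treated and 26.6% in MTZ-preventive, and without that cell the levels were 132 and 161 CPM. Of the immediate early genes counted, only Nr4a1 was past 2-fold, in the library labelled Healthy (630 CPM) and MTZ-preventive (615 CPM) against 267 CPM in AS, and none of 13 was in MTZ-treated.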

How the data were processed

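The authors deposited 10x Genomics 5′ gene expression matrices of whole-number UMI counts per gene and barcode. The file headers name Cell Ranger 5.0.0, and the submitters' processing notes name STAR and mm10. The deposited counts were neither normalized nor corrected for free RNA, and held 21857, 6908, 20938 and 23963 barcodes with 42235505, 7617682, 26196680 and 50769911 UMIs in the 4 libraries. The B and T cell receptor contig files served only to count barcodes with a contig. Counts of 38 symbols on more than 1 line were summed. Barcodes were filtered and classed by the rule in the opening. The cells and gene lists were chosen with earlier results of these data known. Doublets were marked with scrublet in scanpy 1.11.5 (0.8% per 1000 barcodes) and removed only as an alternative.

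UMIs were summed per library and class (at least 20 barcodes), and classes were compared in edgeR 4.0.16 (R 4.3.3, TMM, quasi-likelihood test, library as a block, filter on low counts), after the 20 genes of the rule had been removed, with Benjamini-Hochberg adjustment over 8387 genes. DESeq2 1.42.0 was an alternative. On simulated data with 8443 genes the procedure called 95% of 4-fold and 58% of 2-fold changes in the arterial contrast and 0.0485% of unchanged genes. The changed genes were drawn from genes with many UMIs, and a single mean profile and a single dispersion served all sums. The recovered shares therefore do not cover genes with few UMIs, and no rate covers differences between conditions. The labels do not say that libraries are separate experiments, so p-values measure only the spread between 4 pools. Intervals are 95% exact Poisson (CPM), conditional binomial (ratios) and Clopper-Pearson (shares, computed in scipy 1.17.1). In conditions, 0.5 UMI was added to each side before a gene was counted as past 2-fold.

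The first named genes were the 10 highest and 10 lowest fold changes among called genes that reversed direction in none of the 4 libraries. In a library with no UMI of a gene in either class, the direction was therefore set by the class totals alone. Such a library could count as agreement, as for Scgb3a1 in the library labelled Healthy (0.723 on the log2 scale) and Npy in AS (-1.90). A gene with the other direction was left out for the same reason. Others were list members and the 5 highest and 5 lowest of each condition, ranked by the interval limit nearest to 1. Immunoglobulin, T cell receptor, mitochondrial, ribosomal protein and unnamed genes were left out of this ranking. Positions and promoter windows are RefSeq's on GRCm38.p6, matched by symbol for all 362 genes looked up. One gene that the rule names is not reported here.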

Additional observations from a re-analysis of the deposited data

Results flagged for a closer look

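Of the 154 venous cells of the library labelled Healthy, 20 (13.0%, 95% Clopper-Pearson interval 8.12 to 19.3) also had a B cell receptor contig, a signal in files that the comparisons did not use. The share was 3.05% of arterial cells, 4.73% of small vessel cells and 29.97% of all kept barcodes of that library. In AS it was 0 of 72 venous cells. This count allows a share of up to 4.17% taken as 3 cells, and up to 4.99% by the Clopper-Pearson interval. In MTZ-treated and MTZ-preventive the share was 2 of 424 (0.472%) and 13 of 463 (2.81%). Among all kept barcodes, 10.7% (MTZ-preventive), 1.61% (MTZ-treated) and 1.54% (AS) had such a contig. The venous share was thus the lower one within each library, and both shares ranked the libraries alike. For AS and MTZ-treated the venous interval (up to 4.99% and 1.69%) still included the share of all kept barcodes. The part of this background in the venous counts was not tested.

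For some genes the venous cells lay on the other side of AS from another class, and the difference between the classes was not tested. Ccl2, Emcn, Fabp5 and Plvap are described here, and they are not the only ones. In MTZ-preventive, Cfd was 0.323 times AS in venous and 1.302 times in small vessel cells, and Cidec 0.309 and 1.63 times. The venous level of Ccl2 was 6.24 times AS in MTZ-treated, against 0.107 times in arterial and 0.496 times in small vessel cells. A single cell held 60.8% of these venous UMIs, and without it the level was 132 CPM against 53.5 CPM in AS. In MTZ-preventive it was 4.08 times AS in venous and 0.0653 times in arterial cells. In the library labelled Healthy, Emcn was 2.49 times AS in venous and 0.221 times in arterial cells, Fabp5 2.42 and 0.390 times, and Plvap 2.0 and 0.462 times. The arterial levels of AS rest on 20 cells and the venous Ccl2 level of AS on 7 UMIs.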

How the results depend on the processing

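The venous calls against arterial cells (1454 in all) and small vessel cells (755) depended on the library block: without the replicate block, 831 and 318 genes were called. Leaving out 1 library at a time gave 843 to 1596 and 413 to 672 calls, and without MTZ-treated 843 and 413. Thinning every cell to 1000 UMIs left 323 calls against arterial cells, of 3405 genes tested, and without a filter on low counts there were 2172 and 956. The share of venous cells in the library labelled Healthy relative to AS, 0.21 on the log2 scale, became -1.39 with all kept barcodes as the denominator, -0.56 after thinning, 0.67 with a gate of at least 3 UMIs and 0.77 with Selp left out of the gate, and that of MTZ-preventive, 0.40, became -0.21 with all kept barcodes and 0.81 with looser filters. With a gate of 3 UMIs the Spp1 ratio of MTZ-treated to AS turned from 4.26 to -1.18 on the log2 scale; the cause was not tested. In all, 22 alternative counts of calls were within 1.5 times the reported ones, and 27 alternative share ratios and 166 alternative ratios of named genes kept their direction and moved by less than their interval. The replicate block could not be used for conditions, which have 1 library each, and the 72 AS cells limit every ratio to AS.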

Other observations

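Of 11 clock genes looked at, Dbp differed most between the venous cells of the libraries. The list was chosen after the values had been seen, with Dbp already among the highest genes of the library labelled Healthy. The place of Dbp in the list is therefore description only. The hour at which tissue was taken is not given in the sources used here, and its part was not tested. Dbp was at 268, 7.64, 127 and 87.5 CPM in venous cells (library labelled Healthy, AS, MTZ-treated and MTZ-preventive) and at 313, 37.2, 170 and 77.7 CPM in small vessel cells. Tef, a relative of Dbp, was at 88.6, 30.5, 48.6 and 66.9 CPM in venous cells. Arntl, the core clock activator that peaks opposite to Dbp, was at 1.97, 22.9, 3.24 and 7.35 CPM in venous and 3.55, 11.8, 2.96 and 14.4 CPM in small vessel cells, on 1, 3, 3 and 10 venous UMIs. The intervals of the venous ratios to AS of Arntl, Per1, Per2, Per3, Nr1d1, Nr1d2, Ciart, Bhlhe41 and Npas2 all include 1. Per2 and Ciart were highest in AS in venous cells, on 5 UMIs each. In small vessel cells, on more UMIs, the library labelled Healthy was at 3.14 (2.20 to 4.61) times AS in Nr1d1, 5.31 (2.18 to 16.8) times in Ciart and 1.53 (1.12 to 2.13) times in Per1, and Per2 and Ciart were lowest in AS.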
